A study of Danio rerio with 9 samples.

Results

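The 10 genes described here mark or serve the pigment cells of the zebrafish: pmela, pmelb, dct, tyrp1b, tyr, mitfa, slc24a5, slc45a2, tspan36 and pnp4a. They were found by their names in 3 tables of gene expression, and each name had 1 row in each table, among 29280 rows for 16 µM perfluorobutane sulfonate (PFBS) against control, 26901 rows for 32 µM against control and 29163 rows for 32 µM against 16 µM. The genes were selected on their names, as pigment cell genes, by choice made with the group ratios of these tables already known, so the ratios and q-values below describe the genes and are not a test of the group. PFBS is a short-chain perfluorinated sulfonate. RNA with poly(A) tails was sequenced from whole AB strain zebrafish at 96 h after fertilization, which had their chorions removed at 24 h and their exposure medium renewed every 24 h; the labels give 37 °C for all dishes. The 3 groups were a solvent control with 0.01% DMSO, 16 µM PFBS and 32 µM PFBS. Each group had 3 samples of 15 pooled animals, from 3 separate experiments.

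Zebrafish carry black melanophores, silvery iridophores and yellow xanthophores, all derived from the neural crest. Melanophores make melanin from tyrosine in a specialised organelle, the melanosome, on a scaffold of fibrils. The retinal pigment epithelium, a layer behind the photoreceptors that comes from the optic cup and not from the neural crest, makes melanin with the same enzymes. Iridophores reflect light from platelets of guanine, and xanthophores hold pteridines and carotenoids. In RNA from whole animals, melanin genes therefore report on melanophores and on the pigment epithelium together.

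The tables give 1 level per group as log2 FPKM (fragment numbers divided by transcript length and by library size), with no value per sample, so no level or ratio has a standard error. Ratios are log2 ratios of the named group over the other, and the words rose and fell are kept for q-values under 0.05 in the authors' deposited tables. Levels are given in FPKM, with control and 32 µM levels from the table of that pair and 16 µM levels from the table of 16 µM against control. Fewer cells of a type and less RNA per cell cannot be told apart in these bulk samples. All 10 genes reached 1 FPKM and 8 reached 5 FPKM in each table.

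At 32 µM PFBS, 7 of the 10 genes fell, none rose and 3 were not called in the authors' deposited table. Among all rows there, 0.87% were called lower and 1.83% in either direction, and of the rows naming a single gene 1.28% were called lower. The genes that fell were pmelb, dct, tspan36, slc45a2, pmela, pnp4a and tyrp1b, with log2 ratios from -0.62 to -0.21; pmelb fell by 34.9% and tyrp1b fell by 13.5%. Those not called were tyr, slc24a5 and mitfa. The median log2 ratio of the 10 genes was -0.24 in the authors' deposited table, beside a median of 0 over all rows, of which 48.4% had a negative ratio. Of the genes that fell, 5 had the smallest q of the authors' deposited table, 0.00521, which 258 rows share.

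**Figure D1:**
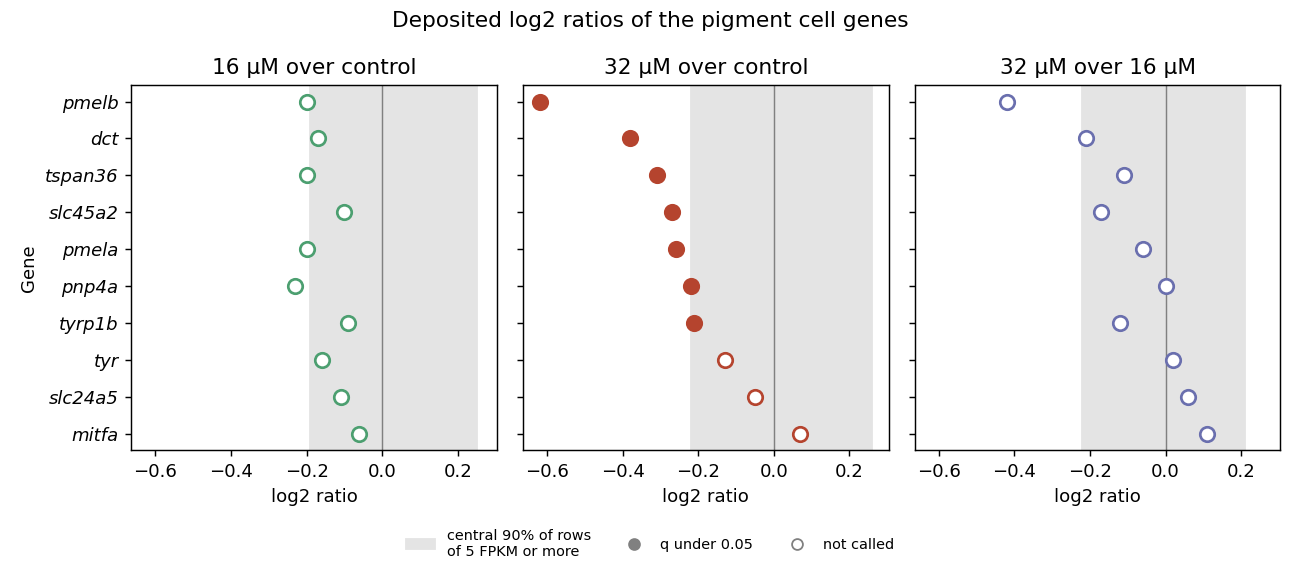
Log2 ratios of the 10 pigment cell genes in the authors' deposited tables for 16 µM PFBS over control (left), 32 µM over control (middle) and 32 µM over 16 µM (right), with filled circles for a q-value under 0.05 and open circles for genes not called. The grey band holds the central 90% of rows of 5 FPKM or more; the 7 filled circles at 32 µM lie between -0.62 and -0.21, and no circle is filled in the other panels.

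The pair of premelanosome protein genes encode the fibril scaffold on which melanin is laid down. The level of pmela (chromosome 11, 3234948 to 3251950, danRer7) was 53.1 FPKM in the control, 45.9 FPKM at 16 µM and 44.3 FPKM at 32 µM in the authors' deposited tables. Both PFBS groups thus lay below the control. Its log2 ratio was -0.26 at 32 µM (q = 0.00521) and -0.20 at 16 µM (q = 0.729) in the authors' deposited tables, so it was called at 32 µM and not at 16 µM. The paralog pmelb (chromosome 23, 35724089 to 35741880) had 5.78 FPKM in the control, 4.99 FPKM at 16 µM and 3.76 FPKM at 32 µM in the authors' deposited tables. It was the lower of the pair in every group and had the most negative ratio of the 10 genes at 32 µM, -0.62 (q = 0.00521), against -0.20 at 16 µM (q = 0.998). Only 0.707% of rows of 5 FPKM or more had a lower ratio than pmelb at 32 µM in the authors' deposited table.

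The tyrosinase family supplies the enzymes of melanin synthesis. The gene tyr, for tyrosinase, the enzyme of the rate-limiting step, had 7.21 FPKM in the control, 6.15 FPKM at 16 µM and 6.63 FPKM at 32 µM in the authors' deposited tables. Its ratios were -0.16 at 16 µM (q = 0.998) and -0.13 at 32 µM (q = 0.528), and it was not called at either dose. The tyr locus (chromosome 15, from 42572518) ended at 42594670 in the authors' deposited table for 16 µM and at 42593523 in that for 32 µM, and its control level was 6.87 FPKM in the first of these. In the 32 µM table the stretch beyond its end stood as unnamed rows, of which the nearest, 237 bases away, had 5.17 FPKM in the control and a ratio of -0.05 (q = 0.966).

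Dopachrome tautomerase, encoded by dct, and tyrosinase-related protein 1, encoded by tyrp1b, act on intermediates after tyrosinase. The level of dct (chromosome 9, 55311303 to 55339081) was 28.8 FPKM in the control, 25.5 FPKM at 16 µM and 22.2 FPKM at 32 µM in the authors' deposited tables. It was lower at 16 µM than in the control and lower again at 32 µM, with ratios of -0.17 (q = 0.998) and -0.38 (q = 0.00521). The level of tyrp1b (chromosome 1, 18074697 to 18087945) was 80.4 FPKM in the control, 75.1 FPKM at 16 µM and 69.6 FPKM at 32 µM in the authors' deposited tables. It was the most abundant of the 10 genes in every group, and it fell at 32 µM by 0.21 on the log2 scale (q = 0.00918), with a ratio of -0.09 at 16 µM (q = 0.998). Within the family, then, dct and tyrp1b fell at 32 µM while tyr, the least abundant of the family genes with a row, was not called. The listed family gene tyrp1a had no row. Whether the ratios of tyr, dct and tyrp1b differ from each other was not tested.

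Slc45a2 and Slc24a5 are membrane transporters needed for normal melanin content, and their genes are mutated in the zebrafish lines albino and golden. The level of slc45a2 (chromosome 21, 18273816 to 18312164) was 16.7 FPKM in the control, 15.6 FPKM at 16 µM and 13.8 FPKM at 32 µM in the authors' deposited tables. It fell at 32 µM, with a ratio of -0.27 and the largest q of the genes that fell, 0.0319; at 16 µM the ratio was -0.10 (q = 0.998). The level of slc24a5 (chromosome 18, 4644225 to 4661671) was 1.97 FPKM in the control, 1.80 FPKM at 16 µM and 1.91 FPKM at 32 µM in the authors' deposited tables. The 3 levels lay close together, with ratios of -0.11 at 16 µM (q = 0.998) and -0.05 at 32 µM (q = 0.922).

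The transcription factor gene mitfa, mutated in the zebrafish line nacre, is required for melanophores to form. Its level (chromosome 6, 43357968 to 43364583) was 1.69 FPKM in the control, 1.61 FPKM at 16 µM and 1.78 FPKM at 32 µM in the authors' deposited tables. This was the least abundant of the 10 genes and the only one with a positive ratio at 32 µM, 0.07 (q = 0.952), against -0.06 at 16 µM (q = 0.998).

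The remaining genes lie outside the melanin pathway. Purine nucleoside phosphorylase 4a, encoded by pnp4a, works in purine metabolism and marks iridophores. Its level (chromosome 11, 25223686 to 25231258) was 32.0 FPKM in the control, 27.1 FPKM at 16 µM and 27.5 FPKM at 32 µM in the authors' deposited tables. Both PFBS groups lay at about the same level below the control: the ratio was -0.23 at 16 µM, where the gene was not called (q = 0.584), and -0.22 at 32 µM, where it fell (q = 0.00521). The tetraspanin gene tspan36, counted here as shared between pigment cell types, had 27.9 FPKM in the control, 24.1 FPKM at 16 µM and 22.5 FPKM at 32 µM in the authors' deposited tables (chromosome 8, 30574661 to 30582990). It fell at 32 µM with a ratio of -0.31 (q = 0.00521), and had -0.20 at 16 µM (q = 0.801).

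**Figure D2:**
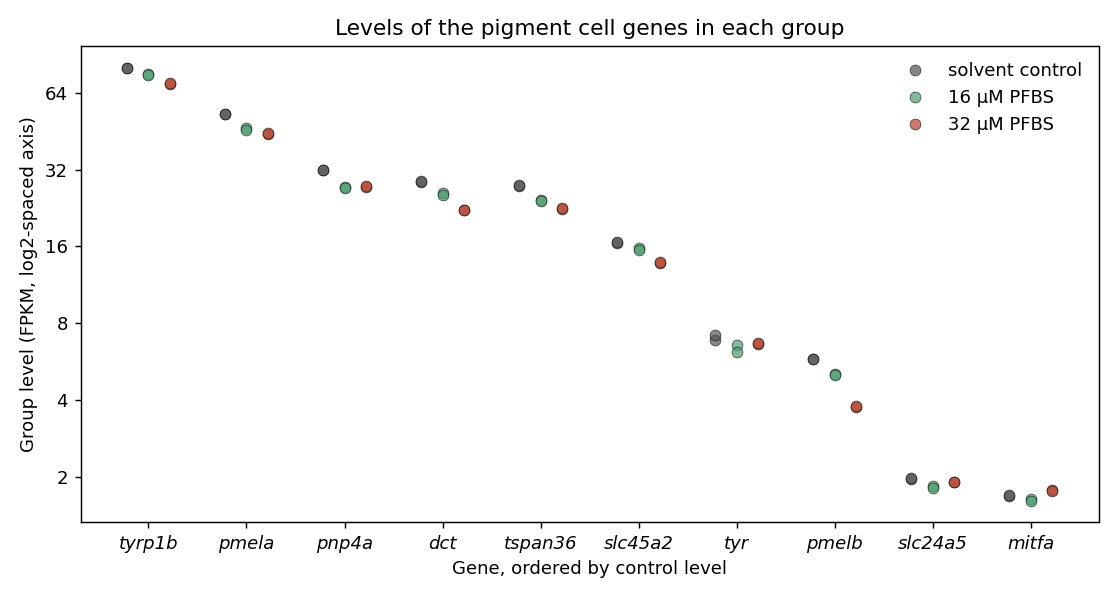
Group levels of the 10 pigment cell genes in FPKM on a log2-spaced axis, ordered by control level; each group has 2 points per gene, its values in the 2 deposited tables that hold it, most of which overlap. Control levels run from 80.4 FPKM for tyrp1b to 1.69 FPKM for mitfa, and only tyr shows its control points apart, at 6.87 and 7.21 FPKM.

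In the control the order of levels was tyrp1b, pmela, pnp4a, dct, tspan36, slc45a2, tyr, pmelb, slc24a5 and mitfa, a 47.5-fold range in FPKM in the authors' deposited table for 32 µM. Among rows naming a single gene in that table, the control level of tyrp1b lay above 92.6% and that of mitfa above 4.99%. Which neighbours in this order differ beyond the spread between samples cannot be said from 1 value per group. Summed over the 10 genes, the level was 255.6 FPKM in the control and 213.9 FPKM at 32 µM, of which tyrp1b made up 31.5% in the control. The same sum was 253.5 FPKM in the control and 227.7 FPKM at 16 µM in the authors' deposited table for that dose.

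At 16 µM PFBS, none of the 10 genes was called by the authors' test, whose deposited table called 0.147% of all rows lower, 0.26% in either direction and 0.207% of the rows naming a single gene lower. Their log2 ratios ran from -0.23 in pnp4a to -0.06 in mitfa, all negative, with a median of -0.165 in the authors' deposited table. The ratio nearest to 0 that was called lower in any level range of this table was -0.28, so no row with a ratio as near to 0 as those of the 10 genes was called lower. Over all rows the median ratio was 0, and 47.7% of rows had a negative ratio. At an unadjusted p under 0.05, recovered from the q-values, 3 of the 10 genes passed, pnp4a, pmela and tspan36, as did 1.33% of all rows. The recovered p is an upper bound where q-values are tied, as they are at 0.998 for the other 7 genes. Those 7 genes thus could not pass, and the share of all rows passing is a lower bound. The control samples are the same for both doses, so the low ratios at 16 µM and at 32 µM share that reference and do not support each other.

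The comparison of 32 µM with 16 µM does not involve the control. None of the 10 genes was called in it, where 0.096% of all rows were called lower, 0.329% in either direction and 0.128% of the rows naming a single gene lower in the authors' deposited table. The ratios were negative in 6 genes, 0 in pnp4a and positive in 3, with a median of -0.085. The most negative were those of pmelb (-0.42, q = 0.115) and dct (-0.21, q = 0.563) in the authors' deposited table. The unadjusted p recovered for this pair was under 0.05, as it was for 2.52% of all rows. The other members had the tied q of 0.999, whose recovered p is an upper bound and could not pass. The genes with positive ratios were mitfa (0.11), slc24a5 (0.06) and tyr (0.02), each with q = 0.999 in the authors' deposited table. For pmelb the level was 5.06 FPKM at 16 µM and 3.78 FPKM at 32 µM, and for dct 25.8 and 22.3 FPKM. The 7 genes called against the control at 32 µM were thus not shown to differ between the doses.

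Whether a ratio was called went with the level of the gene. In the authors' deposited table for 32 µM, rows called lower made up 0.172% of those under 4 FPKM in the control, 0.743% of those at 4 to under 16 FPKM, 2.18% of those at 16 to under 64 FPKM and 3.79% of those at 64 FPKM or more. All 6 of the pigment cell genes above 16 FPKM in the control were called lower, and of the other 4 pmelb alone was. The ratio nearest to 0 that was called lower was -0.31 among rows under 4 FPKM and -0.16 among rows of 64 FPKM or more in the authors' deposited table, so a ratio such as the -0.21 of tyrp1b was not called in any row at the levels of mitfa and slc24a5.

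**Figure D3:**
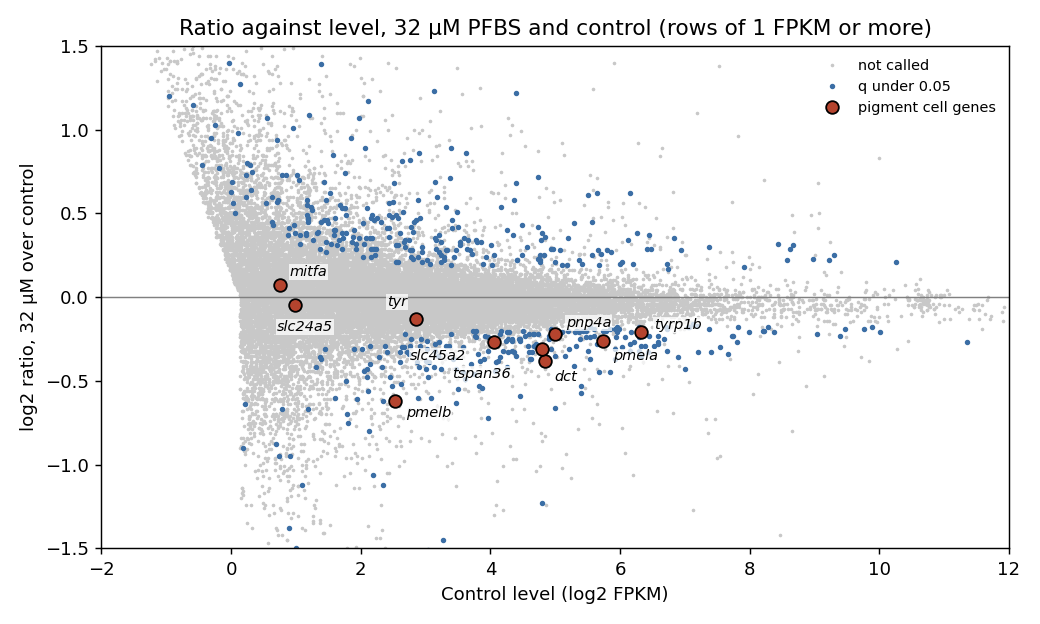
Log2 ratio of 32 µM PFBS over control against the control level in log2 FPKM, for the rows of 1 FPKM or more in the authors' deposited table (grey, not called; blue, q under 0.05; red, the 10 pigment cell genes); 212 of 26901 rows lie outside the axes. Ratios spread more widely at low levels, and the called pigment cell genes lie at the lower edge of the grey cloud, while mitfa, slc24a5 and tyr lie within it.

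The 10 genes lie on 9 chromosomes, with pmela and pnp4a on the same chromosome 21971735 bases apart. In the authors' deposited table for 32 µM, the nearest row on either side of each gene was taken, 20 rows in all, of which 12 named a gene. None of these 20 flanking rows was called by the authors' test, beside 1.83% of all rows called in either direction and 0.87% called lower. Few or no calls would thus be found in 20 rows at those shares. Several of the 20 had under 4 FPKM in the control, where 0.172% of rows were called lower. The ratios of the flanking rows had a median of -0.06, between -0.45 and 0.45, with 12 negative. The cell cycle and clock-related gene timeless, beside pmela, had a ratio of -0.07 (q = 0.713), and tuba1c, a tubulin gene that begins 319 bases from the end of pmelb, had -0.07 (q = 0.662) with 199.5 FPKM in the control in the authors' deposited table. The row that follows mitfa, unnamed and 4783 bases away, had 20.5 FPKM in the control and a ratio of -0.21 (q = 0.115); it was not joined to mitfa in the authors' deposited table. An unnamed row 92 bases beyond slc24a5 had 4.32 FPKM in the control and a ratio of -0.18 (q = 0.844) in the authors' deposited table.

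Other genes of pigmentation were read from 7 lists of 117 distinct genes, 82 of which had a row in the authors' deposited table for 32 µM; a gene may stand in more than 1 list. Besides the members, the melanin and melanosome list had 3 genes with a row, none of them called at either dose in the authors' deposited tables: the melanosome receptor gene gpr143 (-0.15 at 32 µM, q = 0.68), the channel gene trpm1b (-0.12, q = 0.677) and the exchanger gene slc24a4a (0.14, q = 0.822). Melanosome formation and transport had 13 genes with a row and no call at 16 or 32 µM, with medians of -0.07 and -0.01 in the authors' deposited tables. Examples are dtnbp1a, a subunit gene of the BLOC-1 complex (-0.06 at 32 µM, q = 0.9), and vps11, a gene of endosome and lysosome tethering (-0.04, q = 0.877), in the authors' deposited table. Of all rows, 0.26% were called at 16 µM and 1.83% at 32 µM. At 32 µM 2 of the 13 passed an unadjusted p under 0.05, beside 11.2% of all rows. At 16 µM all 13 had the tied q of 0.998, whose recovered p is an upper bound and could not pass.

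The lineage genes upstream of the pigment enzymes were not called either, beside 0.26% of all rows called at 16 µM and 1.83% at 32 µM. Like mitfa, the genes kita, ednrba, ltk and mc1r had under 4 FPKM in the control. At that level 0.172% of rows were called lower at 32 µM. Of 11 transcription factor and receptor genes other than mitfa, none rose or fell by the authors' test at 32 µM, with a median of -0.06 and a range of -0.22 to 0.25 in the authors' deposited table, and 1 passed an unadjusted p under 0.05, a level that 11.2% of all rows of that table passed. The most abundant were tfap2a and tfap2e, AP-2 factors of the neural crest and its pigment cells, and sox5, a factor of the SOX family. Their ratios at 32 µM were -0.15 (q = 0.147), -0.22 (q = 0.955) and -0.02 (q = 0.938) in the authors' deposited table; the locus given for tfap2e spans 976426 bases, so its row may hold reads of other genes. At 16 µM there was no call among 12 such genes in the authors' deposited table, with a median of -0.035.

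Purine synthesis feeds guanine formation in iridophores and serves all growing cells. Besides pnp4a the iridophore and purine list had 14 genes, of which 2 fell, 12 were not called and the median ratio was -0.085 at 32 µM in the authors' deposited table. These were paics, an enzyme gene of purine ring synthesis (chromosome 20, 25647524 to 25668885; 203.7 to 160.9 FPKM, ratio -0.34, q = 0.00521), and prps1a, the gene of phosphoribosyl pyrophosphate synthetase (chromosome 5, 24805496 to 24816624; 45.6 to 36.5 FPKM, ratio -0.32, q = 0.00521), in the authors' deposited table. The listed gene ppat had the same locus limits as paics and a ratio of -0.04 (q = 0.968) in the authors' deposited table. How reads were divided between the rows of ppat and paics is not given. After paics the most abundant were adssl1 (-0.09, q = 0.463) and adsl (-0.16, q = 0.0996). The genes adssl1 and adsl, both of adenine nucleotide synthesis, were not called in the authors' deposited table. At 32 µM 5 of the 14 passed an unadjusted p under 0.05, beside 11.2% of all rows. The 2 calls among these 14 genes stand beside shares called lower of 0.87% for all rows and 1.28% for single-gene rows. At 16 µM none of the 14 was called by the authors' test and 2 passed an unadjusted p under 0.05, beside 1.33% of all rows. At that dose paics had -0.21 (q = 0.706) and prps1a -0.16 (q = 0.998) in the authors' deposited table. The paralog pnp5a had a ratio of 0.11 at 32 µM (q = 0.433) and -0.20 at 16 µM (q = 0.767) in the authors' deposited tables, beside -0.22 and -0.23 for pnp4a.

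**Figure D4:**
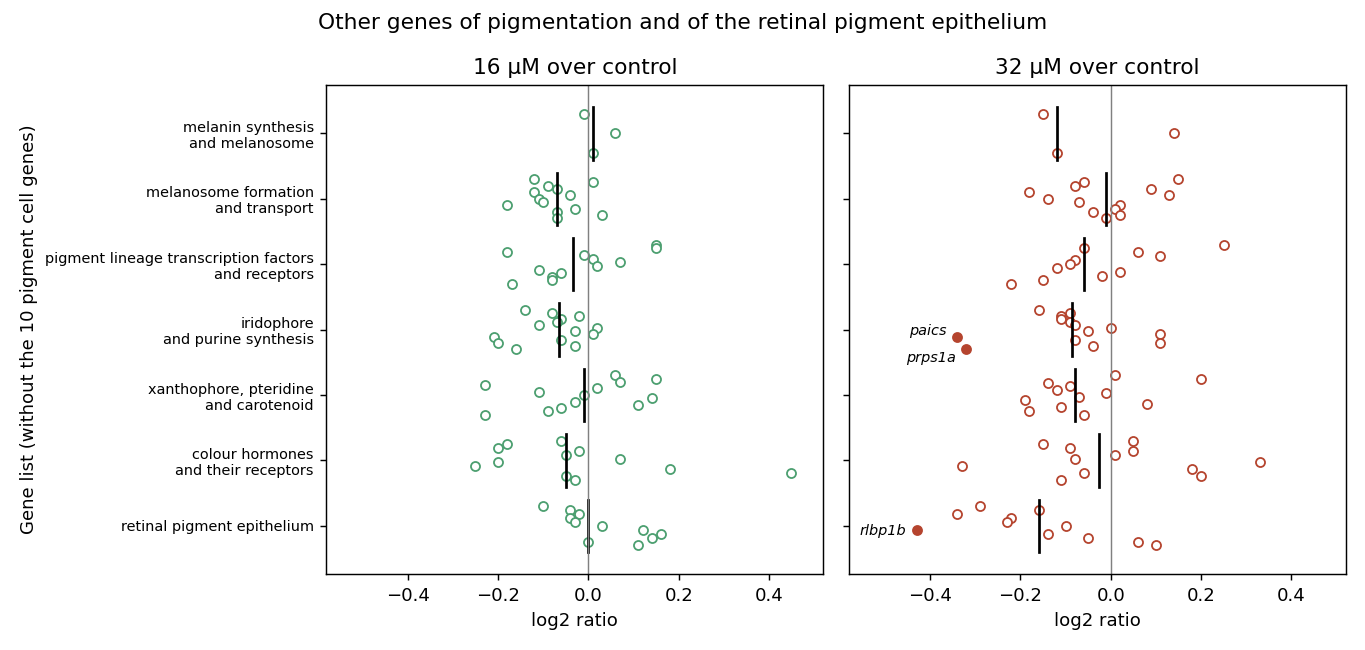
Log2 ratios of the genes of 7 lists, without the 10 pigment cell genes, for 16 µM PFBS over control (left) and 32 µM over control (right) in the authors' deposited tables; each circle is a gene, filled where its q-value is under 0.05, and the black bar is the list's median. No circle is filled at 16 µM, and paics, prps1a and rlbp1b are filled at 32 µM.

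Xanthophore, pteridine and carotenoid genes were not called at either dose by the authors' test. At 32 µM the 12 genes with a row had a median of -0.08 in the authors' deposited table and 2 passed an unadjusted p under 0.05. At 16 µM the 13 genes had a median of -0.01 and 1 passed. Of all rows, 11.2% passed at 32 µM and 1.33% at 16 µM, and 1.83% and 0.26% were called. The GTP cyclohydrolase gene gch2, a xanthophore marker at the entry to pteridine synthesis, had 35.3 FPKM in the control and 32.2 FPKM at 32 µM in the authors' deposited table. Its ratio was -0.14 at 32 µM (q = 0.522) and -0.23 at 16 µM (q = 0.998) in the authors' deposited tables. The pteridine genes pcbd1 (-0.01, q = 0.99) and pts (-0.19, q = 0.537) were likewise not called at 32 µM in the authors' deposited table. Hormone and growth factor genes of pigmentation showed no call among 12 genes at either dose, with medians of -0.05 at 16 µM and -0.025 at 32 µM in the authors' deposited tables. Those tables called 0.26% and 1.83% of all rows. In the 32 µM table pmch, mc1r, mc4r, mc5ra, csf1a, csf1b and mtnr1aa had under 4 FPKM in the control, where 0.172% of rows were called lower. At 32 µM 1 gene of this hormone list passed an unadjusted p under 0.05. At 16 µM all 12 had the tied q of 0.998, whose recovered p could not pass. The most abundant members of the list were kitlga, which encodes the ligand of the melanophore receptor Kit (0.01 at 32 µM, q = 0.992), agrp2 (0.05, q = 0.937) and pmchl (0.20, q = 0.966) in the authors' deposited table. Agrp2 belongs to the agouti family of melanocortin antagonists, and pmchl encodes a melanin-concentrating hormone precursor that lightens fish skin; the locus given for pmchl spans 1068002 bases.

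In the list of the retinal pigment epithelium and its visual cycle, 11 genes had a row. Which cells of the eye express each of them was not tested. At 32 µM rlbp1b fell and the other 10 were not called in the authors' deposited table, where 0.87% of all rows were called lower. The list median was -0.16, 9 genes had a negative ratio, and 6 passed an unadjusted p under 0.05, beside 11.2% of all rows. The gene rlbp1b, for a retinaldehyde-binding protein (chromosome 25, 19596006 to 19608242), had 11.1 FPKM in the control and 8.28 FPKM at 32 µM, a ratio of -0.43 (q = 0.00521) in the authors' deposited table. Its paralog rlbp1a had -0.10 (q = 0.624), and rpe65a, the gene of the retinoid isomerase, -0.14 (q = 0.43) in the authors' deposited table. The opsin-like gene rgrb (-0.23, q = 0.594), whose locus spans 350205 bases, and the transcription factor gene otx2b, named otx2 in the table (-0.16, q = 0.168), were not called at 32 µM in the authors' deposited table. At 16 µM the same 11 genes had a median of 0, with 5 negative and 5 positive ratios, and none was called by the authors' test. All 11 had the tied q of 0.998 there, whose recovered p is an upper bound and could not pass 0.05. In the comparison of 32 with 16 µM, rlbp1b (-0.54, q = 0.0194) and rpe65a (-0.30, q = 0.0456) were lower at 32 µM in the authors' deposited table. No call went in the other direction among the 11, and 0.096% of all rows of that comparison were called lower.

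Defining markers of the pigment cell types were present and none was at 0 in any group. For melanophores 7 of 9 markers had a row. These are all among the 10 genes, so their sum restates the levels above: 189.9 FPKM in the control and 160.2 FPKM at 32 µM. For iridophores 3 of 5 had a row, pnp4a among them (85.8 and 77.5 FPKM), and for xanthophores 4 of 6 (52.7 and 50.0 FPKM). Of the markers listed for the retinal pigment epithelium 5 of 6 had a row, summing to 46.5 FPKM in the control and 41.6 FPKM at 32 µM. The 1 called lower at 32 µM was rlbp1b, with 11.1 and 8.28 FPKM, and whether it marks that layer alone was not tested. In the table for 16 µM the same markers summed to 46.1 FPKM in the control and 49.1 FPKM at 16 µM. For photoreceptors 5 of 5 had a row, and their sum was 1872 FPKM in the control and 1805 FPKM at 32 µM, with none called against the control. In the table for 16 µM the photoreceptor sum was 1859 FPKM in the control and 1988 FPKM at 16 µM, also with none called. For 32 against 16 µM it was 1817 FPKM at 32 µM and 2016 FPKM at 16 µM, with ratios from -0.24 to -0.03. In that comparison 1 photoreceptor marker was called lower, beside 0.096% of all rows. Marker sums of 3 tissues without pigment were also lower at 32 µM in the authors' deposited table. The 3 liver markers summed to 1159 and 1041 FPKM, with 2 called lower and a highest ratio of 0.03. The 3 muscle markers summed to 3482.1 and 3165.5 FPKM with 1 called lower. All liver and muscle markers had 64 FPKM or more in the control. At that level 3.79% of rows were called lower at 32 µM, beside 0.87% of all rows. The 2 of 3 erythrocyte markers with a row summed to 726.5 and 616.4 FPKM with none called. Of that control sum, 1 marker alone had 714.1 FPKM. In the table for 16 µM the erythrocyte sum was 721.5 FPKM in the control and 472.5 FPKM at 16 µM, also with none called. This sum was thus lower at 16 µM than at 32 µM. For neural crest and Schwann cells 2 of 5 markers had a row, with sums of 24.5 and 24.1 FPKM, ratios of -0.06 and 0.02 and none called. The part of the retinal pigment epithelium, or of a decrease shared with other tissues, in the lower levels of the melanin genes at 32 µM was not tested.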

How the data were processed

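Poly(A) RNA of 9 samples was sequenced from stranded libraries, per the labels' protocols. The authors deposited 3 tables, 1 per pair of groups, with each group's expression as log2 FPKM, a log2 ratio, a q-value and a call; a log2 value of -10 stands for an FPKM of 0. The submitters' processing notes name Cufflinks and danRer7; for the aligner, the versions, the annotation and the statistical test, nothing is given in the sources used here. On every row with an FPKM above 0 in both groups, the deposited ratio matched the difference of the group values (later-named group less the other) to within 0.01. Calls were the rows with q under 0.05. Depth per sample is unknown.

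Rows were matched by exact gene name (all 10 names are current RefSeq symbols), and list genes also by older names from the RefSeq table of GRCz12tu, taking the row with the highest mean level. The control level of a gene differed between the tables by at most 0.07 on the log2 scale in tyr and 0.01 in the other members; loci were identical in all 3 tables for 4 members. Unadjusted p-values were recovered as q times rank over rows. On simulated p-values it was checked that no recovered p lay below the true p and that re-adjustment kept the calls. How many p under 0.05 are lost through tied q-values was not checked. Genes at the tied q of 0.998 at 16 µM or 0.999 for 32 against 16 µM could not pass, so counts and shares passing are lower bounds. The members, lists and the naming rule (all members; list genes called in any table; the 3 genes of each list with the highest control level) were chosen with earlier results of these data known. The genes gpr143, trpm1b and slc24a4a and the flanking rows were named after their values were seen. The design called for tests per sample where such values existed; with none, the authors' q-values served. Python 3.11.15, pandas 2.3.3 and matplotlib 3.10.9 were used. Alternatives were other q thresholds, re-adjustment over fewer rows, pseudocounts, centring, rows pooling several names and ratios formed through the third group.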

Additional observations from a re-analysis of the deposited data

Results flagged for a closer look

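In 4 listed genes, none of them among the 10 pigment cell genes, the doses differed by the authors' own test of 32 against 16 µM. That test called 0.329% of all rows in either direction. For rlbp1b the ratio was -0.54 (q = 0.0194) in the authors' deposited table, with 0.12 at 16 µM and -0.43 at 32 µM against the control. The ratio of rpe65a was -0.30 (q = 0.0456) in the authors' deposited table, with 0.16 and -0.14 against the control. For pnp5a, at the same locus in all tables, it was 0.31 (q = 0.0194) in the authors' deposited table, with -0.20 and 0.11 against the control. The ratio of ap3d1, a subunit gene of the AP-3 adaptor that sorts melanosome cargo, was 0.33 (q = 0.0194) in the authors' deposited table, with -0.12 and 0.15 against the control. The level of ap3d1 at 16 µM was 12.2 FPKM in the authors' deposited table for 16 µM and 7.84 FPKM in that for 32 against 16 µM, and the locus limits differed between the tables.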

How the results depend on the processing

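The count of pigment cell genes called at 32 µM stayed at 7 with a q threshold of 0.1, with re-adjustment over rows of 1 or 5 FPKM or more or over rows naming a single gene, and with rows pooling several names; it was 6 at a q threshold of 0.01, where slc45a2 was no longer called. Under the same alternatives the counts at 16 µM and for 32 against 16 µM stayed at 0. Of 144 values of single genes under the alternatives of the call, 143 kept their side of the threshold, a count that includes the values that could not change. Each of these alternatives uses the same deposited ratio, so the direction could not change. At 32 µM all rows already reached 1 FPKM, and no row pooling several names held a member. Those settings thus could not change the count of 7. The median log2 ratio moved by more than rounding in 4 cases: at 16 µM it was -0.151 with a pseudocount of 1 FPKM, and among members of 5 FPKM or more it was -0.185 at 16 µM, -0.265 at 32 µM and -0.115 for 32 against 16 µM, since that filter drops slc24a5 and mitfa. With the other alternatives each median stayed within 0.011 of its value. Centring could not move a median, since the median over rows of 1 FPKM or more was 0 in each table. No paired analysis was possible because the tables hold no value per sample, and leaving out replicates was not run for the same reason. The low levels of mitfa and slc24a5 limit what could be called for them.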
